A study of Mus musculus with 14 samples.

Results

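AP-1 is a family of dimeric transcription factors, and its 9 genes Jun, Junb, Jund, Fos, Fosb, Fosl1, Fosl2, Atf3 and Maff were followed here in mouse liver after 3 weeks of oral furan. The genes were chosen by name, with earlier results of these data known, and 10 of the 55681 probes on the array matched them by RefSeq accession. Of the 9 genes, 8 were well above background in liver RNA on all 14 arrays and were tested among 21976 features. The remaining gene, Fos, was well above background on 0 of 14 arrays and was not tested.

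Each AP-1 protein carries a basic region that touches DNA and a leucine zipper that holds a partner. JUN proteins can pair with themselves, whereas FOS proteins need a JUN partner, and ATF3 and the small MAF protein MAFF join the same network from neighbouring branches of the bZIP class. Many of these genes are switched on within minutes by stress kinases and growth factors, and in liver JUN is best known for its part in regeneration after injury and in hepatocyte survival.

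The livers came from 14 female B6C3F1 mice, aged 5 to 6 weeks in the labels,, whose drinking water held bromodeoxyuridine (BrdU), a base analogue that marks newly made DNA, over the last 5 days. By gavage for 21 days, 4 control mice were given corn oil alone, 5 mice furan at 1 mg/kg body weight and 5 mice furan at 8 mg/kg. Livers were collected 4 h past the final gavage. Furan, a volatile contaminant of heated foods, is a liver toxicant that needs metabolic activation. Every group had received BrdU, so no comparison here is free of it. Liver RNA in Cy5 was hybridised with a universal mouse reference RNA in Cy3, and each value is the log2 ratio of liver over reference for a probe, so that levels of different genes are not compared with each other. The arrays lay on 5 slides, of which slides 1 to 4 held each group once and slide 5 held 1 mouse at 1 mg/kg and 1 at 8 mg/kg.

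Part of the stretch before the start of each gene was searched for exact letters of elements that AP-1 and related factors bind. Near matches, and sites more than 250 bases before the start, were not searched. RefSeq promoter entries on mouse build GRCm38.p6 were found for 8 of the 9 genes, with 3 alternative starts for Maff; Fosl1 was not matched. The 250 bases before the start were searched on both strands for TGACTCA (the classical AP-1 element), TGACGTCA (the cyclic AMP response element), TGACATCA (the variant known from the Jun promoter), TGATGCAA (a core of the ATF4-type composite element) and the CArG box that binds SRF. No 2 of these motifs overlapped in the windows shown. The windows of the 3 genes called at 8 mg/kg are given 5′ to 3′, with Maff window 3 beside them because it holds the same letters as that of Jun, and capitals mark a motif match. They lie at chr4:95052223-95052472 on the minus strand for Jun, chr5:32136222-32136471 on the plus strand for Fosl2, chr1:191183334-191183583 on the minus strand for Atf3 and chr15:79348152-79348401 on the plus strand for Maff.
Jun: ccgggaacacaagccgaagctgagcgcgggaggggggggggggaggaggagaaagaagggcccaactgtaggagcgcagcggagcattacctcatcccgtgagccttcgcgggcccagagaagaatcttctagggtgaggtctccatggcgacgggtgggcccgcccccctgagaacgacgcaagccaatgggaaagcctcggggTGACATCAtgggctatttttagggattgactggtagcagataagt
Fosl2: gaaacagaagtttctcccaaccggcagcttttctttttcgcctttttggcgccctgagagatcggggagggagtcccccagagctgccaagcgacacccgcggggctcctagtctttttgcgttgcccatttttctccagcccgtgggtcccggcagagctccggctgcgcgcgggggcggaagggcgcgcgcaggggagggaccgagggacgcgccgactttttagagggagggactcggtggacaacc
Atf3: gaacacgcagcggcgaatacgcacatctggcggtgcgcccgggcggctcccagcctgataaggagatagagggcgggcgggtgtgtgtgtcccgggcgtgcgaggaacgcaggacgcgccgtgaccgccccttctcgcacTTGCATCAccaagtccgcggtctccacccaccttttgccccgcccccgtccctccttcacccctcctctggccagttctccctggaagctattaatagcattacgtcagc
Maff: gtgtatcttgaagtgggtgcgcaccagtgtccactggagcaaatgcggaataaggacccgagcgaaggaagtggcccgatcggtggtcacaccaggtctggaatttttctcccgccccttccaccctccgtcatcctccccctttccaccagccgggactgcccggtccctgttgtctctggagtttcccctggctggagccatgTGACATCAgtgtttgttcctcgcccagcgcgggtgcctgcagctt
The Jun window held TGACATCA from 45 to 38 bases before the start, and Maff window 3 held it at the same 45 to 38 bases. The same letters, on either strand, lie in 2.93% of all 32817 windows of this length. The Atf3 window held the ATF4-type core on the opposite strand, 110 to 103 bases before the start, a match found in 0.792% of windows. Maff window 2 held TGACGTCA (1.55% of windows), and the Fosl2, Junb, Jund, Fos and Fosb windows held none of the 5 motifs. TGACTCA (4.46% of windows) and the CArG box (1.47%) had no match in any of these windows. A match describes letters, not binding, and a window without one says only that the letters are not in it.

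Jun, Atf3 and Fosl2 rose at 8 mg/kg, and the other 5 tested AP-1 genes did not pass. In limma's test, 3 of 8 members were called against control, all higher, where 4.09% of all 21976 features were called, 2.73% higher and 1.36% lower. At an unadjusted p under 0.05 the count was 4 of 8, beside 20.3% of features. The median difference of the 8 members was 0.24 on the log2 scale, beside 0.002 over all features, with 5 members above 0 and 3 below. At 1 mg/kg 0 of 8 were called.

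**Figure D1:**
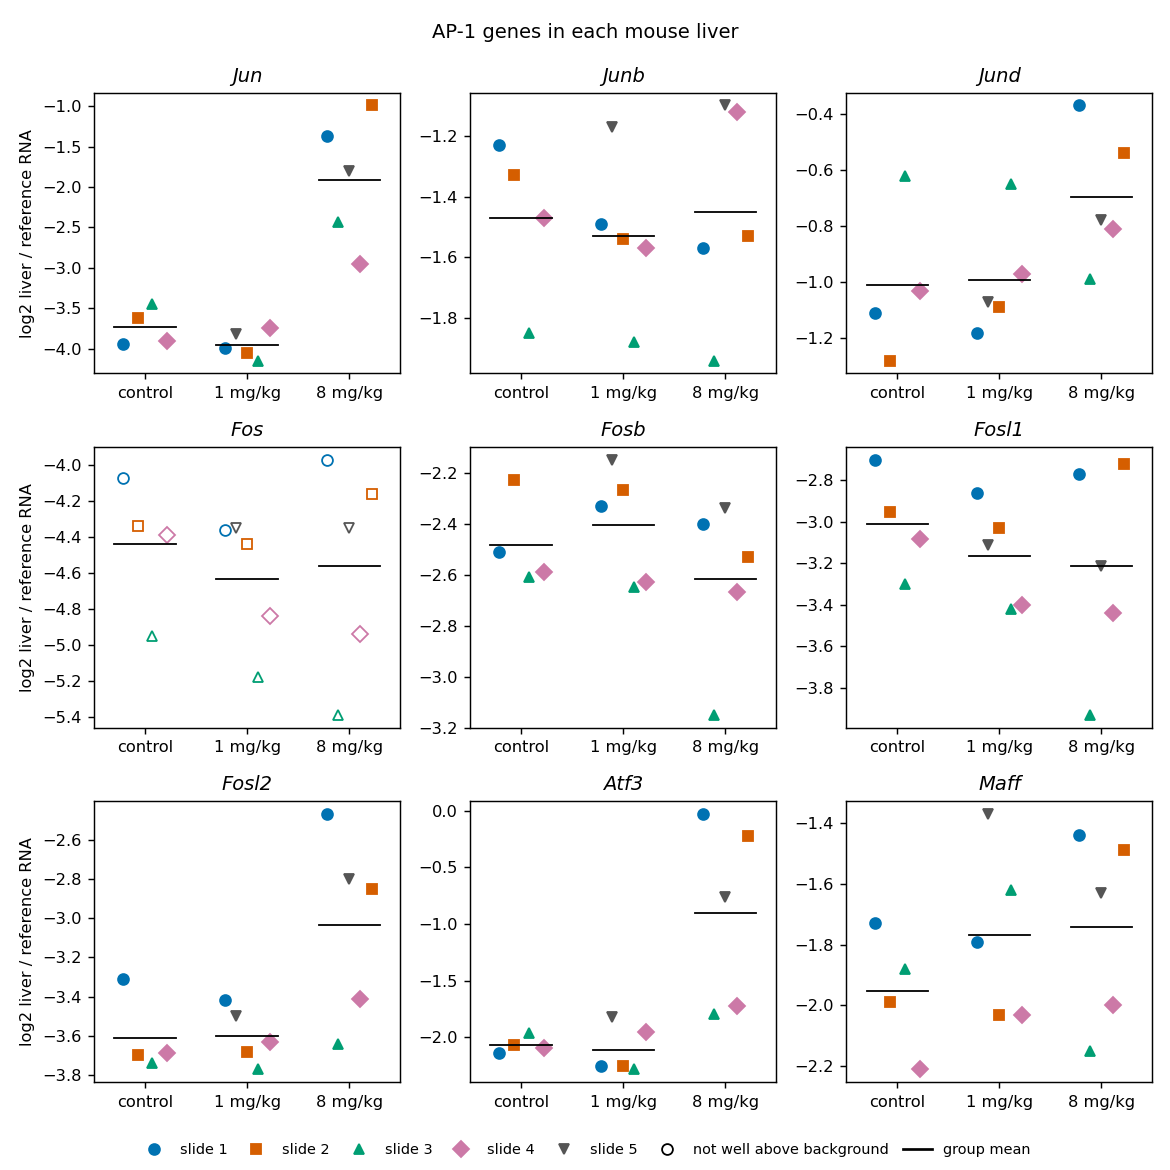
The log2 ratio of liver over reference RNA (vertical axes, 1 scale per gene) is plotted for each of the 14 mice by group, with colour and shape for the slide, open symbols for arrays not well above background and bars for group means. All 5 mice at 8 mg/kg lie above all controls for Jun and Atf3, Fosl2 overlaps in 2 mice, and every Fos symbol is open.

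Among the JUN genes, Jun itself moved most. Jun encodes c-JUN, the main activating subunit of AP-1 and the substrate of the JNK kinases. Its log2 ratios were -3.94, -3.62, -3.45 and -3.90 in control replicates 1 to 4, and -3.99, -3.82, -4.05, -4.15 and -3.75 in replicates 1 to 5 at 1 mg/kg. At 8 mg/kg they were -1.37, -2.43, -1.80, -2.95 and -0.99. The 5 mice at 8 mg/kg lay above all 9 others, and among themselves they spread over almost 2 log2 units, with replicates 5 and 1 highest and replicate 4 lowest. Against control, Jun rose by 1.79 ± 0.27 (SE, n = 5 against 4), or 3.46-fold with a 95% interval of 2.32 to 5.17 (limma adjusted p = 0.00237). Only 0.0455% of features had a larger difference in either direction. The call held under all 30 alternatives, with values of 1.53 to 2.09. The 30 are not all separate checks. Quantile normalization of average intensities left the ratios unchanged, and leaving out either array of slide 5 gave the same fit.

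Jund and Junb, by contrast, overlapped between groups. JUND is the constitutively expressed JUN protein that often restrains proliferation, and JUNB a weaker activator that can antagonise JUN. Jund read -1.11, -1.28, -0.62 and -1.03 in controls and -0.37, -0.99, -0.78, -0.81 and -0.54 at 8 mg/kg. Its difference was 0.33 ± 0.15 (interval 0.006 to 0.66, adjusted p = 0.236). The control of slide 3 was the highest control and the 8 mg/kg mouse of the same slide the lowest of its group, so that Jund was higher at 8 mg/kg within slides 1, 2 and 4 (0.74, 0.74 and 0.22) and lower within slide 3 (-0.37). Without the 3 arrays of slide 3 the difference was 0.54 (adjusted p = 0.0483), and without 8 mg/kg replicate 2 alone, the mouse on that slide, it was 0.53 (adjusted p = 0.0291). Junb ranged from -1.85 to -1.23 in controls and from -1.94 to -1.10 at 8 mg/kg, a difference of -0.07 ± 0.10 (interval -0.29 to 0.15, adjusted p = 0.767). Its spot signal was dim, 105 to 138 in controls and 101 to 192 at 8 mg/kg, which limits what could be seen. In each of the 3 groups the lowest Junb ratio was that of slide 3 (-1.85, -1.88 and -1.94). The liver spot signals of those arrays (138, 152.5 and 177) were not the lowest of their groups.

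Among the FOS genes, Fosl2 was the one that rose. FOSL2, also called FRA2, lacks the strong activation domain of FOS and is the family member known for sustained rather than transient expression. Its ratios were -3.31, -3.70, -3.74 and -3.69 in controls, -3.42, -3.50, -3.68, -3.77 and -3.63 at 1 mg/kg, and -2.47, -3.64, -2.80, -3.41 and -2.85 at 8 mg/kg. Replicates 1, 3 and 5 at 8 mg/kg lay above all 9 other mice, while replicates 2 and 4 lay below the highest control. The rise was 0.53 ± 0.13, or 1.45-fold (interval 1.20 to 1.75, adjusted p = 0.0346), higher in 4 of 4 slides. Fosl2 was dim in controls (spot signal 108 to 180), and its size depended on processing: the scanner software's processed signals gave 1.02 (adjusted p = 0.0585). A further Fosl2 probe was well above background on 0 of 14 arrays and adds no test.

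Fos itself gave no measurable liver signal. FOS is the prototype immediate early protein, and its message is known to last only briefly after a stimulus. The Fos probe was printed 10 times per array, and its spot signal was 71.3 to 87.4 against a local background of 65.4 to 77.6, while the reference channel was well above background on all 14 arrays. Log2 ratios were -4.95 to -4.07 in controls, -5.18 to -4.35 at 1 mg/kg and -5.39 to -3.97 at 8 mg/kg, and the groups overlapped. At 4 h after the dose a difference in Fos was therefore not detectable on this array, and no fold is given. The number of arrays and the dim signal limit what could be seen.

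Fosb and Fosl1, like Junb, were dim but detected. FOSB is an early response protein close to FOS, and FOSL1, or FRA1, is linked to migration and to tumour cells. Fosb ranged from -2.61 to -2.23 in controls and from -3.15 to -2.34 at 8 mg/kg, a difference of -0.20 ± 0.10 (interval -0.41 to 0.01, adjusted p = 0.272). Fosl1 ranged from -3.30 to -2.70 in controls and from -3.93 to -2.72 at 8 mg/kg, a difference of -0.21 ± 0.12 (interval -0.47 to 0.04, adjusted p = 0.334). Both point estimates lay below 0, unlike those of Jun, Atf3 and Fosl2, and both groups overlapped. For each gene the lowest of the 14 ratios was 8 mg/kg replicate 2 on slide 3 (-3.15 and -3.93). The liver spot signal of that array, not scaled between arrays, was the highest of the 14 for both genes (290 and 127). The low ratios therefore do not by themselves show less message in that liver.

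Atf3, of the ATF branch, rose in all 5 mice to unequal degree. ATF3 is induced by many stresses, among them those that activate JNK or ATF4, and it can repress or activate its targets depending on its partner. Its ratios were -2.14, -2.07, -1.96 and -2.09 in controls and -2.25, -1.82, -2.25, -2.28 and -1.95 at 1 mg/kg. At 8 mg/kg they were -0.03, -1.79, -0.76, -1.72 and -0.22. The 5 treated mice lay above all 4 controls and above all 5 mice at 1 mg/kg, but replicates 2 and 4 did so by little: replicate 2 was 0.18 above the control of its slide and replicate 4 0.38 above. The controls had an SD of 0.08 and the mice at 8 mg/kg an SD of 0.82. The fitted rise was 1.11 ± 0.27, or 2.16-fold (interval 1.44 to 3.24, adjusted p = 0.0381). Atf3 too was dim in controls (spot signal 136 to 233), and the scanner software's processed signals gave 1.64 (adjusted p = 0.0808).

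Maff, which encodes a small MAF protein without an activation domain that pairs with NRF2 and BACH1, was not called. Its values were -2.21 to -1.73 in controls, -2.03 to -1.37 at 1 mg/kg and -2.15 to -1.44 at 8 mg/kg. The difference at 8 mg/kg was 0.14 ± 0.14 (interval -0.15 to 0.44, adjusted p = 0.601). The promoter letters TGACATCA that Maff shares with Jun lie in window 3, before 1 of its 3 alternative starts. Which start is used in liver was not tested, so the letters are not set against the calls.

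The groups of Jun and of Atf3 did not overlap between 8 mg/kg and control, 2 of 8 members, where 3.46% of features were apart in this direction. Fosl2 and Atf3 passed with less margin than Jun: they kept their calls under 15 and 17 of 30 alternatives. The Fosl2 call was lost without any single one of control replicates 1 to 4, of 8 mg/kg replicates 1, 3 and 5, or of 1 mg/kg replicate 2 (0.43 to 0.60, adjusted p = 0.0522 to 0.121). The Atf3 call was lost without control replicate 1, 2 or 4, 8 mg/kg replicate 1, 3 or 5, or 1 mg/kg replicate 2 (0.82 to 1.19, adjusted p = 0.0602 to 0.147). The fits without 8 mg/kg replicate 3 and without 1 mg/kg replicate 2, the only arrays of slide 5, are the same fit. With both the replicate number and the slide as blocks, Fosl2 stood at 0.43 (adjusted p = 0.0781) and Atf3 at 0.87 (adjusted p = 0.0949).

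**Figure D2:**
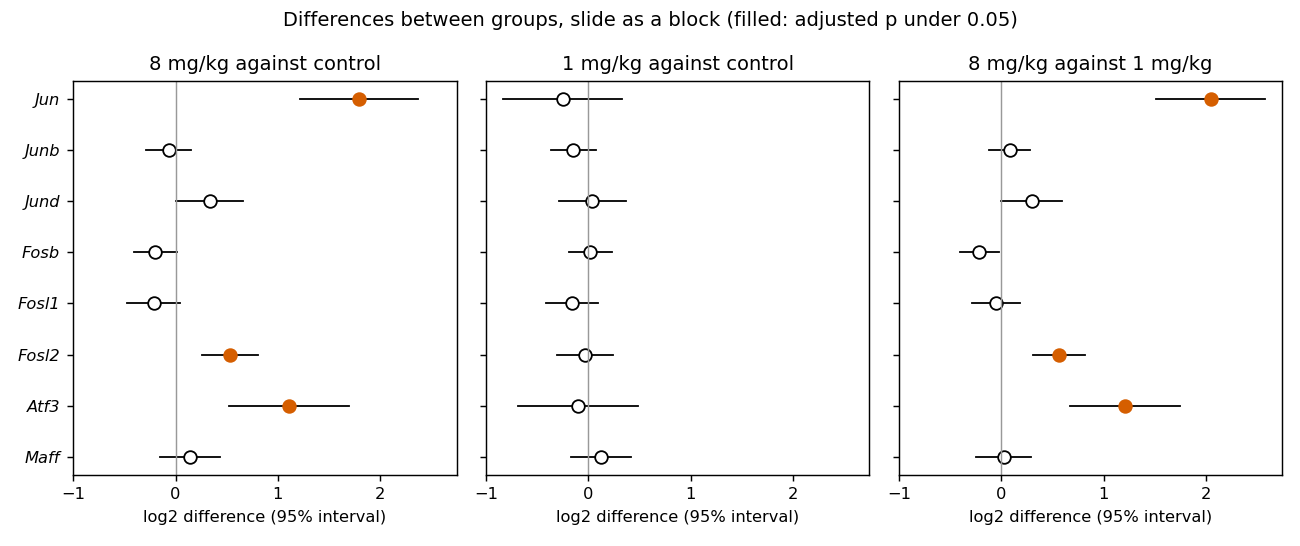
Fitted log2 differences (horizontal axes) with 95% intervals are shown for the 8 tested AP-1 genes in 3 comparisons, with filled points where the adjusted p was under 0.05. Jun, Fosl2 and Atf3 are filled in both comparisons of the 8 mg/kg group, and no gene is filled where the lower dose is set against control.

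The lower dose was compared with control to ask whether it moved any member. None of the 8 was called at 1 mg/kg, where 0% of features were called (0 of 21976). At an unadjusted p under 0.05 the count was 0 of 8 members, beside 1509 features or 6.87%. Jun lay at -0.25 ± 0.27 (interval -0.83 to 0.33, adjusted p = 0.867), Atf3 at -0.10 ± 0.27 (interval -0.69 to 0.49) and Fosl2 at -0.03 ± 0.13 (interval -0.31 to 0.24). The Jun interval leaves room for a rise of up to 1.25-fold, and that of Atf3 for up to 1.40-fold. Atf3 was dim at 1 mg/kg (spot signal 131 to 249), and these limits hold for the main processing only. Junb was lower at 1 mg/kg in 4 of 4 slides (-0.26, -0.21, -0.02 and -0.10), with a fitted difference of -0.15 ± 0.10 (adjusted p = 0.778). So was Fosl1 (-0.15, -0.08, -0.12 and -0.32), with a fitted difference of -0.16 ± 0.12 (adjusted p = 0.793). Fos, at background, was lower in 4 of 4 slides too. The share of all features with this pattern was not counted.

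Set against the lower dose, the same 3 members were called at 8 mg/kg, in a comparison that shares the 8 mg/kg arrays with the one against control. Here 5.29% of all features were called, 2.42% higher and 2.87% lower, and at an unadjusted p under 0.05 the count was 4 of 8 members beside 21.4%. Jun rose by 2.05 ± 0.25 (4.13-fold, interval 2.86 to 5.97, adjusted p = 0.000599), Atf3 by 1.21 ± 0.25 (2.31-fold, adjusted p = 0.0153) and Fosl2 by 0.56 ± 0.12 (1.48-fold, adjusted p = 0.0154). All 3 were higher in 5 of 5 slides, and Jun and Atf3 did not overlap (2.01% of features were apart in this direction). Fosb was lower in 5 of 5 slides, by 0.04 to 0.50, with a fitted difference of -0.21 ± 0.09 that was not called (adjusted p = 0.183). The Atf3 call was lost without 1 mg/kg replicate 1 (1.08, adjusted p = 0.0623). The Fosl2 call was lost without 1 mg/kg replicate 1 or 2 or 8 mg/kg replicate 1, 3 or 5 (0.48 to 0.53, adjusted p = 0.0511 to 0.0623).

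The 3 called genes ordered the treated mice in a like way. For Jun the difference between the 8 mg/kg and control array of a slide was 2.57 on slide 1, 2.64 on slide 2, 1.02 on slide 3 and 0.95 on slide 4. For Atf3 it was 2.11, 1.85, 0.18 and 0.38, and for Fosl2 0.83, 0.85, 0.10 and 0.28. Slides 1 and 2, with 8 mg/kg replicates 1 and 5, thus gave the larger differences for each gene, and slides 3 and 4, with replicates 2 and 4, the smaller. Against the 1 mg/kg array of slide 5, replicate 3 lay in between for each (Jun 2.02, Atf3 1.06, Fosl2 0.70). The split of slides 1 and 2 from slides 3 and 4 was not particular to the called genes. On slides 1 to 4 Jund read 0.74, 0.74, -0.37 and 0.22, Maff 0.29, 0.49, -0.27 and 0.21, and Fosl1 -0.07, 0.23, -0.63 and -0.36. Even Fos, at background, read 0.10, 0.19, -0.43 and -0.55, while Junb and Fosb did not show the split. Each slide held 1 mouse at 8 mg/kg, so that the mouse and the slide cannot be told apart here. Without the 3 arrays of slide 3, Jun was at 2.03 (adjusted p = 0.00718), Atf3 at 1.39 (adjusted p = 0.0346) and Fosl2 at 0.66 (adjusted p = 0.0260).

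**Figure D3:**
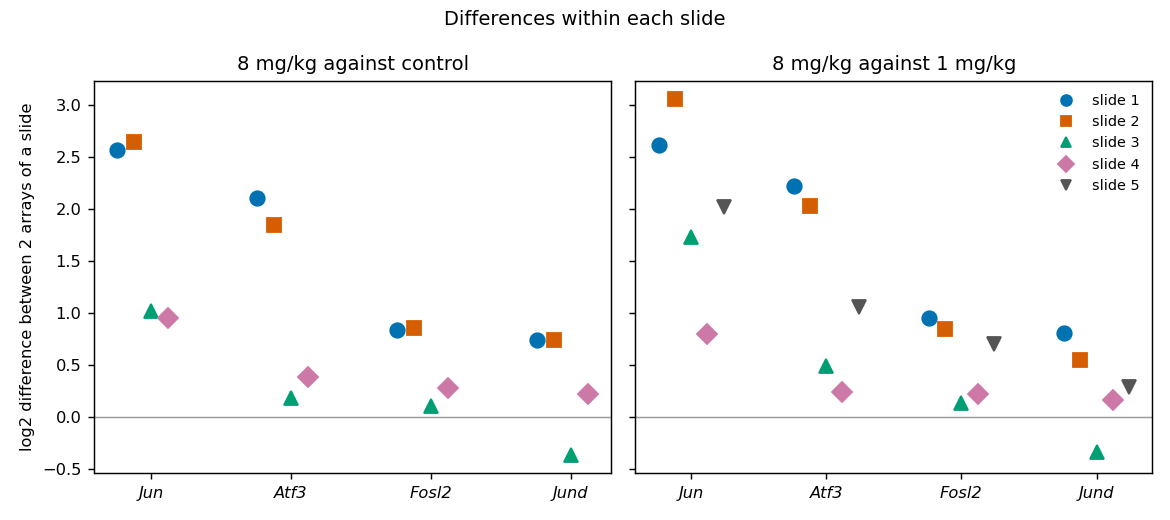
The difference in log2 ratio between the 2 arrays of a slide is shown for Jun, Atf3, Fosl2 and Jund, at 8 mg/kg against control (left) and against 1 mg/kg (right), with colour and shape for the slide. Slides 1 and 2 are highest for each gene on the left, and Jund on slide 3 is the only point below 0 in each panel.

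Genes with the pattern most like that of Jun were sought by Pearson correlation of slide-centred ratios over the 14 arrays, which share dose groups and slides, so the values are a description. The 5 closest named genes were Myc (r = 0.990), the growth regulator; Dusp6 (0.986), which dephosphorylates ERK; Gar1 (0.984), of the box H/ACA ribonucleoprotein; Gzmm (0.980), a granzyme of lymphocytes; and Rassf1 (0.978), a RAS association domain protein. With the dose groups also removed, so that only differences among mice of a group remained, the coefficients were 0.875 to 0.937. Gzmm was well above background on 12 of 14 arrays. The 5 closest to Atf3 were Fosl2 (0.980), Dusp8 (0.966), Hmox1 (0.965), Dusp6 (0.964) and Jun (0.963), so that both other called members were among them. Dusp8 was well above background on 6 of 14 arrays, so its coefficient rests largely on background values. With the groups removed these stood at 0.903 to 0.942. No such list was made for Fos, which was below the filter.

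Around the members, 7 lists of partners, kinases, phosphatases, promoter factors, protein turnover genes and targets held 125 genes, of which 103 were tested. In all 13 were called higher at 8 mg/kg against control and 0 lower, 12.6% beside 4.09% of all features. Of these, 12 were well above background on all 14 arrays, and Dusp8 was so on 6, of which 5 were 8 mg/kg arrays, so that it entered the test through the group where it is high. At 1 mg/kg 0 were called. The count was 7, 6 and 8 without control replicates 1, 2 and 3, and 6 and 7 without 8 mg/kg replicates 1 and 5. The lists were chosen with earlier results of these data known, so the 12.6% is a description and no test of the lists.

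Of 20 tested bZIP partners and relatives 2 rose, 0 fell and 18 did not pass (median 0.01). Nfe2l2, which encodes NRF2, the activator of antioxidant genes and a partner of small MAF proteins, rose by 0.76 ± 0.11 (adjusted p = 0.00183). Its values at 8 mg/kg (0.13 to 0.57) lay above all controls (-0.46 to -0.27). Atf4, the effector of the integrated stress response, rose by 0.64 ± 0.14 (adjusted p = 0.0233) and kept its call under 19 of 30 alternatives.

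In the JNK pathway, whose kinases phosphorylate JUN and thereby activate it, 3 of 17 tested genes rose and 14 did not pass (median 0.13). They were Gadd45g, a stress protein that activates an upstream kinase (0.68 ± 0.16, adjusted p = 0.0305), Map3k7, which encodes the kinase TAK1 (0.36 ± 0.09, adjusted p = 0.0360), and Map3k1, the kinase MEKK1 (0.35 ± 0.09, adjusted p = 0.0481). They kept their calls under 17, 13 and 6 of 30 alternatives, and all 3 overlapped between groups. Map2k7, the kinase directly above JNK, lay at 0.50 ± 0.14 (adjusted p = 0.0570). Phosphorylation was not measured.

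In the ERK and p38 pathway 17 of 18 tested genes did not pass (median -0.02). Map2k6, which activates p38, lay at -0.54 ± 0.15 against control (adjusted p = 0.0538) and fell by 0.56 against 1 mg/kg (adjusted p = 0.0300). SRF and its cofactors act at the serum response element of the Fos promoter. In the list of these and of MEF2 genes, Elk1 rose by 0.39 ± 0.10 (adjusted p = 0.0442, kept under 8 of 30) and 8 of 9 did not pass. Mrtfa, an actin-sensing SRF cofactor, lay at 0.24 ± 0.08 (adjusted p = 0.128). Of 8 genes of JUN and FOS turnover 0 passed; Itch, which encodes a ubiquitin ligase of JUN proteins, lay at -0.22 ± 0.10 (adjusted p = 0.240).

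MAP kinase phosphatases and other feedback inhibitors, which switch the cascade off again, had 2 of 12 that were called, Dusp8 among them, and 10 that did not pass (median 0.16). Dusp6 rose by 0.95 ± 0.17 (adjusted p = 0.00769). It read -1.92, -1.17, -1.43 and -1.26 in controls and -0.29, -1.17, -0.45, -0.65 and 0.15 at 8 mg/kg, with replicate 5 highest and replicate 2 level with the highest control to 2 decimals. For Dusp8, which prefers JNK and p38, the difference from control is not given as a size, since most controls were not well above background. Its signal cleared background in 5 of 5 mice at 8 mg/kg, 1 of 4 controls and 0 of 5 at 1 mg/kg. Against 1 mg/kg no size or bound is given either, since the 1 mg/kg arrays held background values only.

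Of 31 genes listed from general knowledge as AP-1 targets 19 were tested, 4 rose, 0 fell and 15 did not pass (median 0.07). Tnfrsf12a, the TWEAK receptor of injured liver, read -3.22 to -3.02 in controls and -2.59 to -1.19 at 8 mg/kg and rose by 1.28 ± 0.17 (adjusted p = 0.00114). Hmox1, heme oxygenase, rose by 1.09 ± 0.18 (adjusted p = 0.00446), Ccnd1, cyclin D1, by 0.66 ± 0.13 (adjusted p = 0.0158) and Krt18, a hepatocyte keratin, by 0.58 ± 0.09 (adjusted p = 0.00253). Mt2, a metallothionein, was called only between the doses, lower at 8 than at 1 mg/kg (-0.91, adjusted p = 0.00721). Against control it lay at -0.10 ± 0.18 at 8 mg/kg and at 0.81 ± 0.18 at 1 mg/kg (adjusted p = 0.802 and 0.613). Several of these targets answer to other factors as well, Hmox1 to NRF2 among them. The other 12 listed targets, among them the matrix metalloproteinase genes Mmp3, Mmp9, Mmp10, Mmp12 and Mmp13 and the cytokine gene Il6, were below the filter and were not tested.

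**Figure D4:**
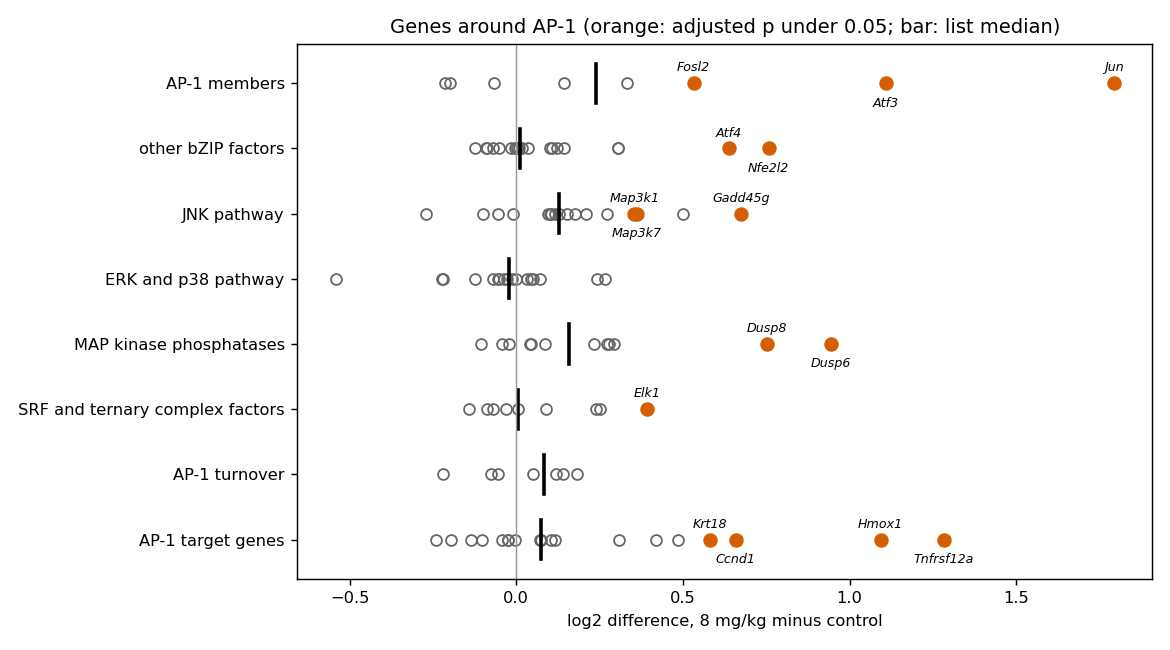
Each circle is the log2 difference at 8 mg/kg minus control (horizontal axis) of a tested gene, in rows for the AP-1 genes and the 7 lists around them, with orange for an adjusted p under 0.05 and a bar for the median of all tested genes of the list; 2 genes are not drawn. The 3 orange AP-1 genes are Fosl2, Atf3 and Jun, and no gene that fell is orange.

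Markers of other liver cells were read beside these results. In bulk liver, fewer cells of a type and less RNA per cell cannot be told apart. Hepatocyte markers such as Alb and Ttr were detected as the label requires, 8 of 8 tested, with list means of 6.79 to 8.48 in controls and 6.81 to 8.22 at 8 mg/kg, and only Cps1 was called (-0.34 ± 0.08, adjusted p = 0.0335). Of the markers of Kupffer cells (8 tested), neutrophils and monocytes (4), T, NK and B cells (6), stellate cells (8), endothelium (7) and cholangiocytes (6), 0 were called at 8 mg/kg against control, beside 4.09% of all features. At that share lists this small can hold no call, so the 0 does not show that these cells were unchanged. The Kupffer marker Marco lay at 0.66 ± 0.19 (adjusted p = 0.0615). Against 1 mg/kg only the stellate marker Lrat was called, lower at 8 mg/kg (-0.64, adjusted p = 0.0290). The list means of Kupffer markers were 2.90 to 3.66 in controls and 3.02 to 3.77 at 8 mg/kg, and those of neutrophil and monocyte markers 0.13 to 0.58 and 0.15 to 0.51. In the same order they were -0.09 to 0.09 and -0.23 to 0.03 for T, NK and B cells, -1.47 to -1.07 and -1.39 to -1.26 for stellate cells, 2.52 to 2.99 and 2.33 to 3.08 for endothelium, and -2.23 to -1.98 and -2.40 to -1.80 for cholangiocytes. The part of these cells in the AP-1 values was not tested.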

How the data were processed

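Per the file headers, the authors read the arrays with Feature Extraction 10.7.3.1, which gave median spot and local background intensities in both channels and processed intensities that the software had background-subtracted and dye-normalized. The authors also deposited a table of linear ratios of liver over reference; log2 of its columns correlated at 0.992 to 0.995 with the values computed here, with column medians of 0.977 to 0.990, and no source used here states how it was normalized. The deposited scanner files also held 0 or 1 flags for spots; these have no scale.

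Median intensities were corrected with normexp (offset 50) and normalized by loess within arrays; 3671 control spots had no weight and 178 to 336 flagged spots per array were left out. No spot was saturated. The 23065 to 29850 probes well above background per array and the number of arrays set the precision. Probes well above background on at least 4 of 14 arrays were kept, the brightest probe standing for a gene. RefSeq accessions (GRCm38.p6 table, names only) named 26413 of 55681 probes. One limma 3.58.1 model (R 4.3.3) covered the 14 arrays, with slide as a fixed term, after the submitters' randomized block design, and p-values were adjusted by Benjamini-Hochberg over 21976 features at 0.05. The fit was run on simulated data with independent noise per gene, which lacks the correlation between genes seen here and so does not measure false calls in these data.

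All AP-1 genes were named, in each list those that passed, and, where at most 1 passed, the 2 with the smallest p. Map2k7 was added after its value was seen, and 2 genes that the rule names are not reported here. Members and lists were chosen with earlier results of these data known. Mice of a group are separate animals per the series design. Alternatives covered block, background, scaling, filter, probe rule, threshold and each array left out.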

Additional observations from a re-analysis of the deposited data

Results flagged for a closer look

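Of 27 groups of AP-1 values (9 genes in 3 groups), 1 held a mouse far from the others, about as many as chance gives, which is 1 in 20. Control replicate 1 was the highest control for Fosl2, at -3.31 against -3.69 for the next, a gap of 0.891 of the range of the 4 controls. The same slide also gave the highest Fosl2 value at 1 mg/kg (-3.42) and at 8 mg/kg (-2.47).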

How the results depend on the processing

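Over 30 alternatives Jun kept its direction and its call at 8 mg/kg, and 0 members were called at 1 mg/kg under any of them. The count of members called at 8 mg/kg against control was 1 with no slide block, with only the arrays of the 2 groups compared, with the scanner software's processed signals and with the authors' table, and 1 to 4 with an array left out. It was 4 with median centring, with the liver channel alone and without the arrays of slide 3. Against 1 mg/kg it was 1 with the processed signals and 1 to 4 with an array left out. The 13 pathway genes became 5 with no slide block, 7 with the 2 groups alone, 5 with processed signals, 8 with the authors' table, 8 at 1.5-fold, 22 with median centring and 6 to 13 with an array left out. Fits with an array left out hold fewer arrays, and the 1.5-fold setting adds a limit. Why the counts changed was not tested.

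The replicate numbers of the titles did not pair the arrays: same-numbered arrays on different slides correlated at -0.424 to 0.23. With the replicate block in place of the slide the members called were 1 against control and 1 against 1 mg/kg, and the pathway genes 4. With the replicate block together with the slide block 1 member was called against control, 3 against 1 mg/kg and 9 pathway genes.

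Features called against control numbered 898, and 273 with no slide block, 122 with the replicate block, 535 with both blocks, 302 with the 2 groups alone, 399 without slide 3, 389 with processed signals, 270 at 1.5-fold, 1352 with median centring, 1368 with the liver channel alone and 315 to 869 with an array left out. Of these 66.7% were higher, against 96.4% with median centring, which moved the median of all features to 0.14 and under which Jund, at 0.51, was called (adjusted p = 0.0490), and 54.6% with the liver channel alone. With the liver channel alone Jund was called too, at 0.40 against control (adjusted p = 0.0242) and at 0.44 against 1 mg/kg (adjusted p = 0.0120). Against 1 mg/kg 1162 features were called (45.7% higher), and 297 with no slide block, 150 with the replicate block, 269 at 1.5-fold, 430 with processed signals (64.4% higher), 410 with median centring (68.3% higher) and 418 to 1251 with an array left out. Quantile normalization of average intensities left the ratios as they were. The further Fosl2 probe was below the filter, so that no alternative with it was run. With processed signals Atf3 was at 1.64 (adjusted p = 0.0808) and Fosl2 at 1.02 (adjusted p = 0.0585).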
